A study of Saccharomyces cerevisiae with 12 samples.

Results

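The genes described are 10 of the 6100 open reading frames on the arrays. They encode enzymes of budding yeast that remove superoxide and peroxides: the catalase CTT1 (YGR088W), the superoxide dismutases SOD1 (YJR104C) and SOD2 (YHR008C), the peroxiredoxins TSA1 (YML028W), TSA2 (YDR453C), PRX1 (YBL064C), AHP1 (YLR109W) and DOT5 (YIL010W), cytochrome c peroxidase CCP1 (YKR066C) and the glutathione peroxidase GPX1 (YKL026C). They were taken by systematic name from a list, and all 10 had a value on all 12 arrays. Each array set total RNA of 1 yeast sample against a reference RNA, whose source and dye the labels do not give. A strain lacking USV1 (YPL230W, a zinc finger protein; delUSV1 in the labels) was sampled at 0, 2, 5, 7 and 9 hours and 1 day of a stationary phase course. Wild type (strain DBY8778) was sampled at 0, 3, 5, 7 and 9 hours and 1 day. The labels name no culture, parent of the deletion strain or marker, and each strain and time point has 1 array.

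Superoxide escapes mainly from the respiratory chain and is converted to hydrogen peroxide by superoxide dismutases, with copper and zinc in Sod1 and manganese in Sod2. Catalases split hydrogen peroxide without a reductant, whereas peroxiredoxins and glutathione peroxidases draw electrons from thioredoxin or glutathione, and Ccp1 takes them from cytochrome c. Yeast that runs out of glucose turns to respiration and raises its resistance to oxidants, for which several of these enzymes are known. Sod2, Prx1 and Ccp1 are mitochondrial. Ctt1, Sod1, Tsa1, Tsa2 and Ahp1 were counted as cytosolic, although a part of Sod1 also lies in mitochondria. Dot5 is nuclear, and Gpx1, for which more than 1 place in the cell has been described, was put in neither class.

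All values below are log2 ratios after each array's median was set to 0. Sample over reference was taken as the direction of a positive ratio. That is likely, not known, because it rests on USV1, which read -1.0, -2.46, -1.40, 1.14, -0.98 and -0.29 in the deletion strain, against -0.57, 0.50, 0.28, 4.40, 3.94 and 2.59 in wild type, at the 6 times of each in order. It was lower in the deletion strain at all 5 shared times. USV1 averaged -0.04 ± 1.08 in the deletion strain and 3.64 ± 0.94 in wild type over 7 hours, 9 hours and 1 day (SD, n = 3 each). None of the 66 pairs of arrays correlated under -0.3 across genes. The median of 6 a-cell genes ranged from -1.15 to 0.89 over the deletion arrays and from -0.66 to 1.25 over the wild-type arrays. That of 4 alpha-cell genes ranged from -0.80 to -0.25 over the deletion arrays and from -0.85 to 0.29 over the wild-type arrays. Ratios to an unknown reference cannot show which mating type the cells had.

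Late arrays (7 hours, 9 hours and 1 day) were set against early arrays (0 hours and 2 or 3 hours) to ask how these genes changed along the course, in both strains together and in each. The 5-hour arrays were left out of this fit and are given as values. Averaged over the strains, 7 of the 10 genes rose (27.7% of 6083 genes tested rose), 2 fell (26.5% fell) and 1 did not pass (limma, adjusted p under 0.05 over all genes tested). CTT1, GPX1, PRX1, TSA2, SOD2, CCP1 and SOD1 rose, whereas TSA1 and AHP1 fell and DOT5 did not pass. The median change of the 10 genes was 1.70 on the log2 scale, against 0.07 for all genes tested. In the deletion strain 7 rose (19.9% of all genes) and 2 fell (19.1%), and in wild type 6 rose (17.9%) and 2 fell (19.4%). SOD1 was the gene that passed in the deletion strain and not in wild type. The counts in a single strain leaned on its 0-hour array: without it 5 rose and 0 fell in the deletion strain (22.2% of all genes called either way), and 6 rose and 0 fell in wild type (21.1%). With all arrays 39% of all genes were called either way in the deletion strain and 37.3% in wild type. Leaving out any other array gave 1 to 3 that fell in the deletion strain and 1 to 2 in wild type.

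Early and late arrays did not overlap for any of the 10 genes in either strain. In each strain 7 genes lay higher on every late array (33.5% of all genes in the deletion strain and 31.9% in wild type) and 3 lower, DOT5 among them (30.6% in each). Late arrays of a strain are different time points, so a p-value sets the change against the scatter between times of 1 phase and not against the spread between cultures. In such bulk RNA a change in all cells and a change in the share of cells that express a gene cannot be told apart. A fit of 1 day minus 0 hours that took in the 5-hour arrays, where the strains differ, called only CTT1 and PRX1 higher and AHP1 lower among the 10, where 4.32% of 5838 genes were called (limma). Genes that no longer passed included GPX1 at 4.04 (adjusted p = 0.0619) and SOD2 at 2.09 (adjusted p = 0.0917, limma). TSA2 stood at 2.09 (adjusted p = 0.343) and CCP1 at 1.005 (adjusted p = 0.158, limma). TSA1 at -1.07 (adjusted p = 0.157) and SOD1 at 0.545 (adjusted p = 0.493, limma) lost their calls too.

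**Figure D1:**
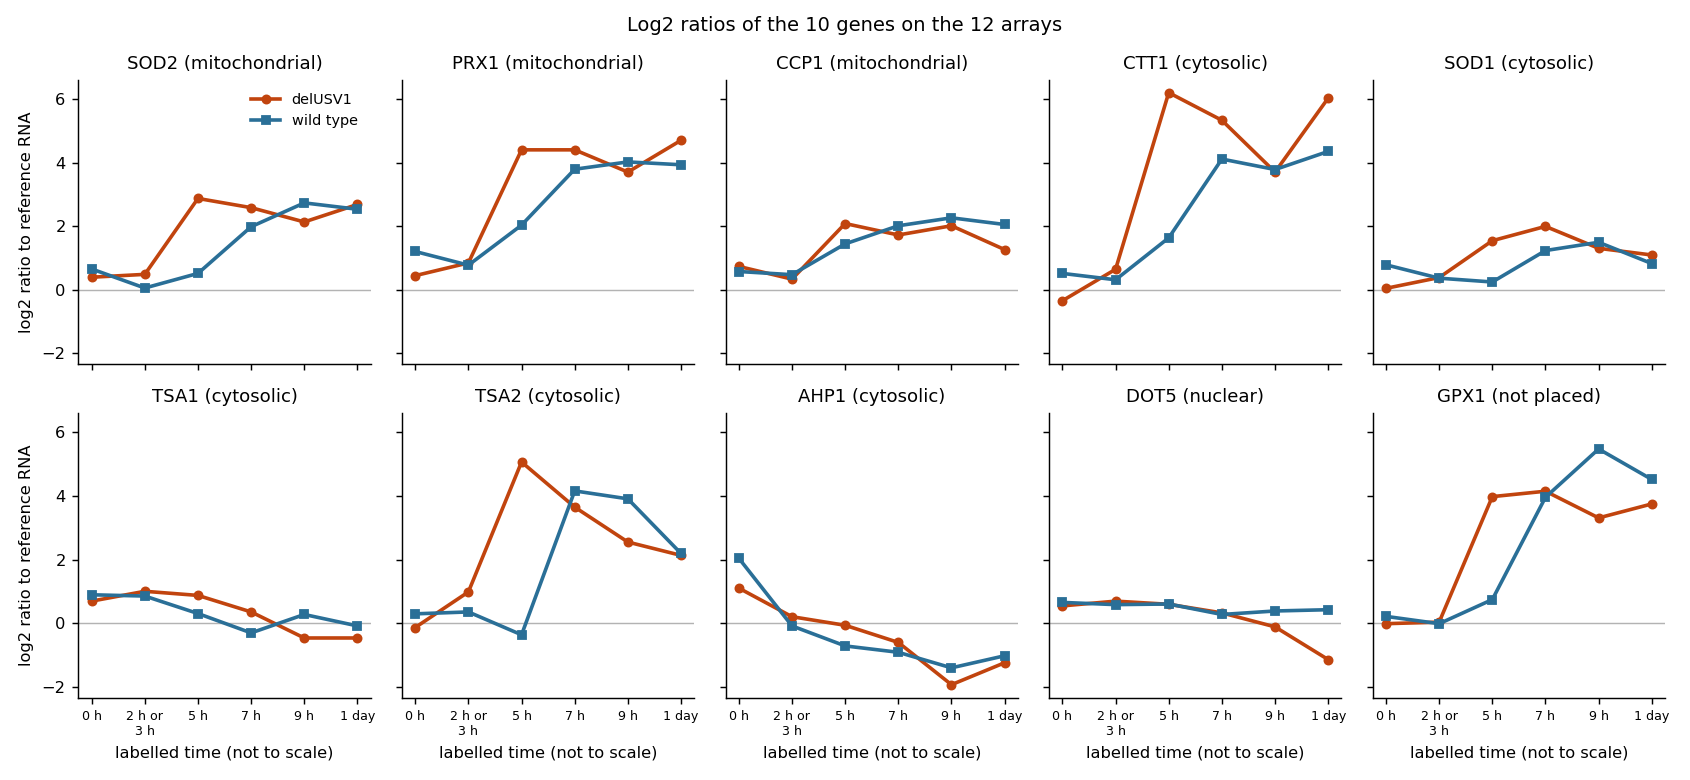
Log2 ratio to the reference RNA (vertical axis) of each of the 10 genes against the labelled time in order (horizontal axis, not to scale), with circles for the USV1 deletion strain and squares for wild type; each point is 1 array. CTT1, PRX1, SOD2, TSA2 and GPX1 climb between 2 and 5 hours in the deletion strain and mostly between 5 and 7 hours in wild type, while TSA1 and AHP1 decline.

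All 3 mitochondrial genes rose in both strains. SOD2, the manganese superoxide dismutase of the mitochondrial matrix, had log2 ratios of 0.39, 0.48, 2.87, 2.58, 2.13 and 2.68 at 0, 2, 5, 7 and 9 hours and 1 day in the deletion strain. Wild-type SOD2 stood at 0.65, 0.05, 0.51, 1.98, 2.73 and 2.53 at 0, 3, 5, 7 and 9 hours and 1 day. Every late array was thus above every early one, and the 5-hour array was with the late arrays in the deletion strain and with the early ones in wild type. SOD2 averaged 2.46 ± 0.29 late (SD, n = 3) and 0.44 ± 0.06 early (n = 2) in the deletion strain. It averaged 2.41 ± 0.39 late and 0.35 ± 0.42 early in wild type. The rise was 2.03 in the deletion strain (SE 0.32, adjusted p = 0.000227) and 2.06 in wild type (SE 0.32, adjusted p = 0.000206, limma), or 4.08-fold in the deletion strain and 4.18-fold in wild type. After quantile normalization of the arrays it was 1.09 in the deletion strain (adjusted p = 0.0148) and 1.33 in wild type (adjusted p = 0.00743, limma).

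PRX1, the mitochondrial peroxiredoxin, had the largest change of these 3 on the centred arrays. Its log2 ratios were 0.44, 0.84, 4.40, 4.40, 3.70 and 4.70 at 0, 2, 5, 7 and 9 hours and 1 day in the deletion strain. In wild type they were 1.20, 0.77, 2.03, 3.79, 4.02 and 3.93 at 0, 3, 5, 7 and 9 hours and 1 day. The wild-type value at 5 hours lay between its early and late values, at 35.7% of the way, whereas the deletion strain had reached its late level by then. Late minus early came to 3.63 in the deletion strain (SE 0.32, adjusted p = 3.67e-06), a 12.4-fold rise, and to 2.93 in wild type (SE 0.32, adjusted p = 1.57e-05, limma), a 7.61-fold rise. After quantile normalization, which gives all arrays the same distribution, it was 1.91 in the deletion strain (adjusted p = 0.000586) and 0.90 in wild type (adjusted p = 0.0486, limma), where SOD2 then rose more. Averaged over the strains its change of 3.28 ranked 109th from the top of 6083 genes.

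CCP1, which reduces hydrogen peroxide between the mitochondrial membranes with electrons from cytochrome c, rose least of the 3. The deletion arrays read 0.73, 0.33, 2.08, 1.72, 2.01 and 1.26 at 0, 2, 5, 7 and 9 hours and 1 day. Wild type gave 0.57, 0.47, 1.44, 2.01, 2.26 and 2.05 at its 6 times. At 5 hours wild type had gone 58.0% of the way to its late mean, further than for SOD2 (7.75%) or PRX1. The rise was 1.13 in the deletion strain (SE 0.29, adjusted p = 0.00748) and 1.59 in wild type (SE 0.29, adjusted p = 0.000853, limma). After quantile normalization it was 0.33 in the deletion strain (adjusted p = 0.417) and 0.78 in wild type (adjusted p = 0.0702). Without the 2-hour array of the deletion strain its rise was 0.93 there (adjusted p = 0.0982).

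CTT1, the cytosolic catalase, rose more than any other of the 10 in the deletion strain, and GPX1 more in wild type. CTT1 read -0.35, 0.64, 6.20, 5.33, 3.70 and 6.03 at 0, 2, 5, 7 and 9 hours and 1 day in the deletion strain. The wild-type ratios were 0.51, 0.31, 1.63, 4.11, 3.78 and 4.35 at 0, 3, 5, 7 and 9 hours and 1 day. In both strains the 9-hour array was the lowest of the 3 late ones and the 1-day array was above it. Late arrays averaged 5.02 ± 1.20 (SD, n = 3) and early ones 0.15 ± 0.70 (n = 2) in the deletion strain, a rise of 4.88 or 29.3-fold (SE 0.52, adjusted p = 1.19e-05, limma). In wild type they averaged 4.08 ± 0.29 late and 0.41 ± 0.14 early, a rise of 3.67 or 12.7-fold (SE 0.52, adjusted p = 0.000107, limma), which was 2.35 after quantile normalization (adjusted p = 0.00486). Over both strains CTT1 ranked 45th from the top of 6083 genes.

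SOD1, the copper and zinc superoxide dismutase, moved far less than SOD2. It read 0.04, 0.38, 1.54, 1.99, 1.30 and 1.09 in the deletion strain and 0.78, 0.36, 0.24, 1.23, 1.49 and 0.82 in wild type, at the 6 times of each in order. The lowest late value of wild type, 0.82 at 1 day, was barely above its 0.78 at 0 hours. The rise passed in the deletion strain, at 1.25 (SE 0.33, adjusted p = 0.00866), and not in wild type, at 0.61 (SE 0.33, adjusted p = 0.164, limma). The difference between these 2 changes was 0.64 with a 95% interval from -0.37 to 1.65 and did not pass (adjusted p = 0.960, limma), so the strains are not shown to differ. Over both strains SOD1 rose by 0.93 (adjusted p = 0.00416), but after quantile normalization by 0.41 (adjusted p = 0.143, limma), which did not pass. Without the 0-hour array of the deletion strain its change there was 1.08 (adjusted p = 0.0970), and after quantile normalization it was 0.76 (adjusted p = 0.0716).

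The peroxiredoxins outside mitochondria went different ways. TSA2, the stress-inducible close relative of TSA1, read -0.14, 0.98, 5.07, 3.65, 2.55 and 2.13 at 0, 2, 5, 7 and 9 hours and 1 day in the deletion strain. Wild-type TSA2 stood at 0.29, 0.35, -0.37, 4.16, 3.91 and 2.19 at 0, 3, 5, 7 and 9 hours and 1 day. It was highest at 5 hours in the deletion strain and at 7 hours in wild type. Unlike CTT1 and PRX1 it was then lower on each later array, down to nearly the same ratio in both strains at 1 day. The rise from early to late was 2.36 in the deletion strain (SE 0.55, adjusted p = 0.00412) and 3.10 in wild type (SE 0.55, adjusted p = 0.000639, limma). Without the 0-hour array of the deletion strain it was 1.80 there (adjusted p = 0.0799), and after quantile normalization 1.14 (adjusted p = 0.116), with 2.01 in wild type (adjusted p = 0.0157).

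TSA1, the main cytosolic peroxiredoxin of growing cells, fell. It read 0.69, 1.0, 0.87, 0.35, -0.47 and -0.47 in the deletion strain and 0.89, 0.85, 0.30, -0.31, 0.27 and -0.09 in wild type, at the 6 times of each in order. Late arrays were all lower than early ones, by less than 2-fold on some of them. The change was -1.04 in the deletion strain (SE 0.32, adjusted p = 0.0187) and -0.91 in wild type (SE 0.32, adjusted p = 0.0368, limma). These calls were near the threshold: leaving out 1 array gave adjusted p-values up to 0.148 in the deletion strain and up to 0.155 in wild type. After quantile normalization the fall was larger, at -1.84 in the deletion strain (adjusted p = 0.0016) and -1.76 in wild type (adjusted p = 0.00308, limma). Averaged over the strains the fall of 0.98 passed without any 1 array. TSA1 and TSA2 are close paralogues whose spots may bind each other's transcripts, so the values of both are uncertain.

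AHP1, a cytosolic peroxiredoxin that acts on alkyl hydroperoxides, had the largest fall of the 10. Its ratios in the deletion strain were 1.10, 0.20, -0.07, -0.61, -1.94 and -1.25 at 0, 2, 5, 7 and 9 hours and 1 day. Those in wild type were 2.04, -0.09, -0.72, -0.92, -1.41 and -1.03 at 0, 3, 5, 7 and 9 hours and 1 day. Most of the wild-type fall lay between the 0-hour and 3-hour arrays, so the 2 early arrays differ widely. Late minus early was -1.92 in the deletion strain (SE 0.53, adjusted p = 0.0105) and -2.10 in wild type (SE 0.53, adjusted p = 0.00668, limma). Without the 0-hour array of the strain it was -1.47 in the deletion strain (adjusted p = 0.137) and -1.03 in wild type (adjusted p = 0.168), so the call in a single strain rested on that array. Over both strains AHP1 passed under every alternative tried, between -2.78 and -1.25.

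DOT5, the nuclear peroxiredoxin, did not pass on the centred arrays. It read 0.54, 0.69, 0.59, 0.32, -0.12 and -1.15 in the deletion strain and 0.65, 0.58, 0.60, 0.27, 0.38 and 0.42 in wild type. The first 4 arrays of the strains were alike, and the deletion strain was lower at 9 hours and 1 day. Late minus early was -0.93 in the deletion strain (SE 0.36, adjusted p = 0.0546) and -0.26 in wild type (SE 0.36, adjusted p = 0.602, limma). The deletion value passed with the values as deposited, at -1.04 (adjusted p = 0.0340), without its 7-hour array, at -1.25 (adjusted p = 0.0154), and after quantile normalization, at -1.38 (adjusted p = 0.00736). Over both strains the change of -0.60 (adjusted p = 0.0621) passed in 4 of 20 alternatives, among them quantile normalization, at -1.06 (adjusted p = 0.00312, limma). The call for DOT5 thus depends on the processing.

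GPX1, a glutathione peroxidase that also reduces lipid hydroperoxides, was near 0 on the early arrays and high on the late ones. The deletion arrays gave -0.02, 0.03, 3.98, 4.15, 3.31 and 3.75 at 0, 2, 5, 7 and 9 hours and 1 day. Wild type gave 0.21, -0.02, 0.74, 3.96, 5.48 and 4.52 at 0, 3, 5, 7 and 9 hours and 1 day. The highest array was that of 7 hours in the deletion strain and that of 9 hours in wild type. The rise was 3.73 in the deletion strain (SE 0.39, adjusted p = 1.11e-05), which is 13.3-fold, and 4.56 in wild type (SE 0.39, adjusted p = 3.19e-06, limma), which is 23.6-fold. Over both strains GPX1 ranked 48th from the top.

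**Figure D2:**
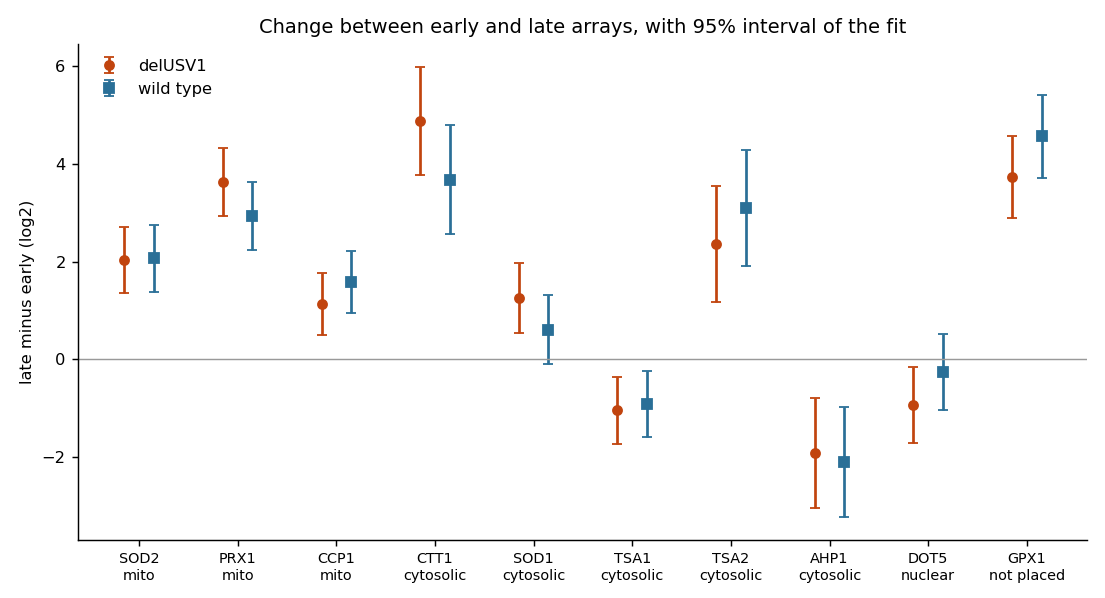
Change between early and late arrays (log2, vertical axis) of each gene, with circles for the USV1 deletion strain and squares for wild type; bars are 95% intervals of the fit. The 3 mitochondrial genes lie above 0 in both strains, while the 5 cytosolic genes reach from AHP1 at -1.92 and -2.10 to CTT1 at 4.88 and 3.67.

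The mitochondrial genes were then set against the cytosolic ones by the mean change from the early arrays. On the late arrays the 3 mitochondrial genes averaged 2.26 ± 0.16 and the 5 cytosolic genes 1.10 ± 0.56 in the deletion strain (SD over n = 3 arrays). In wild type the mitochondrial genes averaged 2.19 ± 0.21 and the cytosolic ones 0.87 ± 0.22. The mean was higher in the mitochondrial class on each of the 6 late arrays, by 0.68 to 1.50 in the deletion strain and by 0.95 to 1.60 in wild type. The cytosolic range took in the mitochondrial one on all 6 late arrays: cytosolic genes ran from -2.59 to 3.56 at 9 hours in the deletion strain and mitochondrial ones from 1.48 to 3.06. CTT1 rose more than any mitochondrial gene in both strains, and TSA2 more than SOD2 and CCP1. In wild type TSA2 also rose more than PRX1 (3.10 against 2.93). TSA1 and AHP1, the 2 members of the 10 that fell, are both in the cytosolic class. Without these 2 the late mean of the cytosolic genes would lie above the mitochondrial one in both strains. With 3 and 5 chosen genes the comparison of the classes is a description with no test.

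On the 5-hour arrays, 1 per strain and with no test, the class means lay closer together in the deletion strain than in wild type. At 5 hours the deletion strain had means of 2.58 for the mitochondrial and 2.27 for the cytosolic genes, a difference of 0.31. Wild type had 0.71 for the mitochondrial and -0.41 for the cytosolic genes, a difference of 1.12. The cytosolic mean of the deletion strain took in CTT1 at 6.055 and TSA2 at 4.65. By the middle gene of each class, the deletion strain stood at 2.435 for the mitochondrial and 1.33 for the cytosolic genes. The middle genes of wild type stood at 0.92 and -0.57, so the contrast between the strains depends on the measure. In wild type PRX1, CCP1 and CTT1 were above their early arrays at 5 hours, whereas SOD1, TSA1, TSA2 and AHP1 were below theirs.

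**Figure D3:**
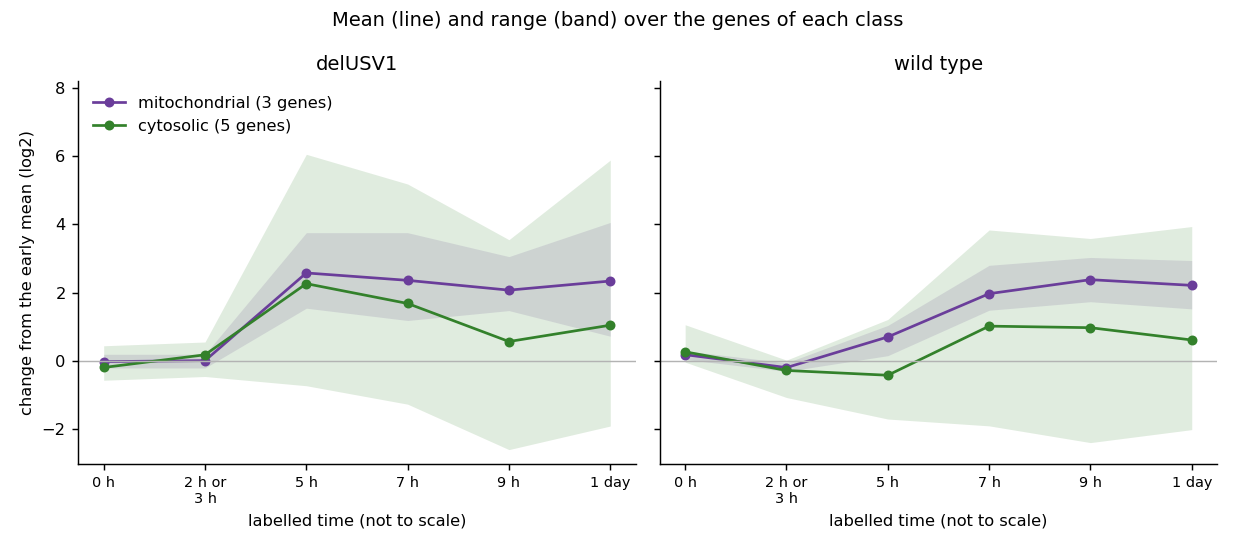
Change from the early mean (log2, vertical axis) by labelled time in order, for the USV1 deletion strain (left) and wild type (right); lines are means and bands the range over the 3 mitochondrial and 5 cytosolic genes. Late mitochondrial means lie between 1.98 and 2.39 in both strains, and the cytosolic band reaches from below -1 to above 3.

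The comparison of the strains asks whether loss of USV1 altered these genes. At 5 hours, on 1 array per strain and with no test, 6 of the 10 were at least 2-fold higher in the deletion strain (20.4% of 6020 genes) and 0 at least 2-fold lower (20% of all genes). TSA2 stood apart by 5.44 and ranked 6th from the top of all genes, and CTT1 by 4.57 and ranked 23rd. GPX1 differed by 3.24, PRX1 by 2.37, SOD2 by 2.36 and SOD1 by 1.30. Since 40.4% of all genes were at least 2-fold apart on these arrays, a difference between these 2 arrays at large and one that is due to the deletion cannot be told apart there. CCP1 (0.64), AHP1 (0.65) and TSA1 (0.57) differed less, and DOT5 by -0.01.

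On the late arrays none of the 10 genes differed past the threshold, as was so for all 6083 genes (limma, 711 or 11.7% at an unadjusted p under 0.05), USV1 itself included (-3.69, adjusted p = 0.0761). For all 10 genes the late arrays of the strains overlapped, where 15.2% of all genes did not overlap. GPX1 had the smallest p, at -0.92 (deletion minus wild type, 95% interval from -1.67 to -0.16, unadjusted p = 0.0204, adjusted p = 0.356). CTT1 had the largest positive estimate, at 0.94 (interval from -0.05 to 1.93, adjusted p = 0.438). The intervals reached from -0.56 to 0.66 for SOD2, from -0.27 to 0.97 for PRX1 and from -1.01 to 0.12 for CCP1. They reached from -0.36 to 0.92 for SOD1, from -0.76 to 0.46 for TSA1, from -1.70 to 0.42 for TSA2, from -1.16 to 0.86 for AHP1 and from -1.37 to 0.02 for DOT5. A 2-fold strain difference in either direction therefore lies outside the interval for SOD2, PRX1, SOD1 and TSA1. It lies inside for CTT1 on the upper side and for CCP1, TSA2, AHP1, DOT5 and GPX1 on the lower side. Like the p-values, these intervals rest on the scatter between times of 1 phase and not on the spread between cultures. They do not bound a difference between cultures of the 2 strains.

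The strain differences varied between single late times. At 7 hours 8 of the 10 genes were higher in the deletion strain (56.2% of all genes), with CTT1 at least 2-fold higher (1.22; 5.72% of all genes). At 9 hours all 10 were lower in the deletion strain (45.8% of all genes), with GPX1 at -2.17, ranking 5th from the bottom of 6054 genes, and TSA2 at -1.36 (2.64% of all genes were at least 2-fold lower). At 1 day 4 were higher (52.1% of all genes), CTT1 by 1.68, and 6 lower (47.5%), DOT5 by 1.57 on the log2 scale (8.98% and 8.92% of all genes at least 2-fold higher and lower). At 0 hours 9 of the 10 were lower in the deletion strain (47.6% of all genes), from -0.11 for DOT5 to -0.94 for AHP1, none by 2-fold (3.72% either way). These are differences of single arrays, and 10 genes of 1 array share whatever moved that array.

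**Figure D4:**
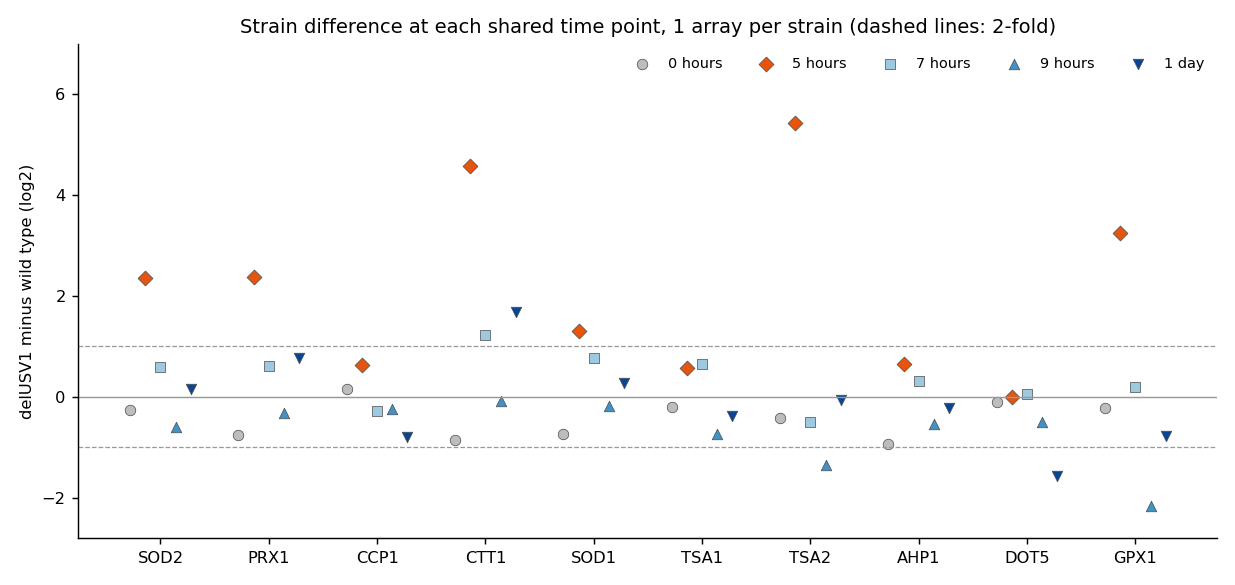
Deletion minus wild-type log2 ratio (vertical axis) of each gene at the 5 shared time points, 1 array per strain; dashed lines mark 2-fold. The 5-hour diamonds lie at 5.44 for TSA2 and 4.57 for CTT1, and all 10 triangles for 9 hours lie below 0.

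On the early arrays no gene of the 10 passed (limma; 85 of 6083 genes, or 1.4%, had an unadjusted p under 0.05 and 0 an adjusted one), with estimates between -0.36 for SOD1 and 0.10 for TSA2. The test of whether late minus early differed between the strains called none of the 10 either (limma; 249 genes or 4.09% at an unadjusted p under 0.05, 0 after adjustment). Its estimates ran from -0.83 for GPX1 (interval from -2.02 to 0.36) to 1.21 for CTT1 (interval from -0.37 to 2.78), with 0.70 for PRX1 and -0.74 for TSA2, all at an adjusted p of 0.960 or above.

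Among themselves the 7 genes that rose had similar courses. The 7 were picked by their rise on these arrays, so positive correlations between them were largely set by that choice. Their 21 pairs had a Pearson r across the 12 arrays between 0.71 and 0.98 with a median of 0.86, highest for PRX1 and CTT1 (0.98) and then for SOD2 and PRX1 (0.97). AHP1 had a negative r with all 7, strongest at -0.71 with CCP1 and with PRX1 and weakest at -0.46 with SOD1. TSA1 (-0.66 with PRX1 to -0.32 with TSA2) and DOT5 (-0.55 with PRX1 to -0.20 with TSA2) were negative with all 7 too. AHP1, TSA1 and DOT5 were lower on every late array, so these negative signs were largely set by the choice as well. These correlations describe a course in which a large part of all genes changed. The labels do not say whether all arrays share 1 reference. Of 5362 genes, 365 had r above 0.9 with PRX1, 315 with SOD2, 320 with GPX1 and 285 with CTT1. There were 186 such genes for TSA2, 82 for CCP1 and 81 for SOD1. Only 2 genes reached 0.9 with AHP1, 4 with DOT5 and none with TSA1.

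The genes nearest in course were the following, by r over the 12 arrays. ATG9 (0.99 and 0.99) was nearest to both PRX1 and CTT1, and PFU1 was nearest to SOD2 (0.98) and among the 3 nearest to PRX1 (0.98). The other near genes were YNL194C and CLD1 for SOD2, RCI37 for PRX1, and NVJ1 and PKP1 for CTT1. GPX1 ran closest to YMR114C, YOR019W and HSP30, which encodes a plasma membrane protein made under stress, and TSA2 to YPL247C, AIM23 and YAP1801, all between 0.97 and 0.98. SOD1 was nearest to YFL043C (0.97), HYR1, another glutathione peroxidase gene (0.96), and MPM1 (0.95), and CCP1 to YRF1-6 (0.97), a repeated telomeric gene whose spot is uncertain, YBR062C and EDS1 (0.96 each). AHP1 was nearest to RTN1 (0.93), the proteasome gene PRE1 (0.91) and the chaperone gene SSA2 (0.89), TSA1 to CFT2 (0.88), LSM1 (0.87) and NDC1 (0.86), and DOT5 to YJR142W (0.93), HRB1 (0.91) and YLR112W (0.91).

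The thioredoxin and glutathione system, only some of whose enzymes supply peroxidases with electrons, also divided. Of its 22 listed genes 11 rose, 3 fell and 8 did not pass over both strains, with a median of 0.53. Of all genes tested 27.7% rose and 26.5% fell. The glutaredoxin GRX1 (2.03, SE 0.28) and the glutathione transferase GTT1 (2.01, SE 0.21) rose most, while the thioredoxin reductase TRR1 (-1.47, SE 0.20) and the glutaredoxin GRX3 (-1.25, SE 0.26) fell most. Of the thioredoxin genes, singled out after their values were seen, the mitochondrial pair of TRX3 (1.30, SE 0.31, adjusted p = 0.00308) and its reductase TRR2 (1.13, SE 0.34, adjusted p = 0.0136) rose, as did cytosolic TRX2 (0.88, SE 0.25, adjusted p = 0.00773). Cytosolic TRX1 fell, at -0.87 (SE 0.25, adjusted p = 0.00958, limma), together with its reductase TRR1. TRX1 read -0.21, -0.23 and -1.47 late against 0.82 and 0.57 early in the deletion strain, and 0.16, 0.32 and 0.36 late against 0.69 and 0.68 early in wild type. The sulfiredoxin SRX1, which repairs over-oxidised Tsa1, stood at 0.56 (SE 0.19, adjusted p = 0.0245, limma) and was likewise picked after its value was seen. In the deletion strain the 0-hour array was empty for GRX3 and the 2-hour array for TRR2, which left a single early value for each. The change of TRR2 in that strain alone was 1.25 and did not pass.

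A list of 9 tested genes holds other catalase and glutathione peroxidase genes, metal carriers of the superoxide dismutases, and the partners of Ccp1. Of these 5 rose (27.7% of all genes), 2 fell (26.5%) and 2 did not pass, with a median of 0.93. Of the 5 that rose, some do not remove superoxide or peroxide themselves. These are CYB2, the cytochrome c gene CYC1 (1.86, SE 0.43) and MTM1 (0.93, SE 0.20), listed with the metal carriers. CYC1 and MTM1 were named after their values were seen. CYB2, the lactate dehydrogenase that feeds cytochrome c, rose by 4.35 (SE 0.54), and the peroxisomal catalase CTA1 by 2.73 (SE 0.33). GPX2, a glutathione peroxidase gene related to GPX1, fell by 1.88 (SE 0.19), and CCS1, the chaperone that brings copper to Sod1, fell by 1.13 (SE 0.26). GPX2 read -1.74, -1.44 and -1.55 late against 0.67 and 0.42 early in the deletion strain, and -1.35, -1.10 and -1.13 late against 0.50 and 0.37 early in wild type, so it was below 0 on every late array of both strains, where GPX1 was between 3.31 and 5.48. CCS1 read -1.04, -0.95 and -1.77 late in the deletion strain and 0.27, -0.68 and 0.03 late in wild type, where 1 late array was above an early one. Its fall passed in the deletion strain (-1.77, adjusted p = 0.00201) and not in wild type (-0.50, adjusted p = 0.310, limma). For CTA1 the wild-type array at 3 hours was empty.

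Of 12 regulators tested 7 rose and 2 fell, with a median of 0.82. For this and the lists below, the shares of all genes were 27.7% that rose and 26.5% that fell. HAP4, the activator of respiratory genes, rose by 3.33 (SE 0.28) and the copper-responsive activator CUP2 by 1.45 (SE 0.21), while MSN2, an activator of general stress genes, fell by 1.34 (SE 0.21) and the osmotic stress kinase HOG1 fell by 0.92 (SE 0.28). MSN4, the close relative of MSN2 and also an activator of general stress genes, rose by 1.42 (SE 0.30, adjusted p = 0.00122, limma). It passed in the deletion strain (1.98, adjusted p = 0.00228) and not in wild type (0.85, adjusted p = 0.131, limma). HOG1 likewise passed in the deletion strain (-1.09, adjusted p = 0.0381) and not in wild type (-0.745, adjusted p = 0.181, limma), where its 7-hour array was empty. YAP1, the main activator of peroxide-induced genes, stood at 0.23 (adjusted p = 0.358) and SKN7 at -0.01 (adjusted p = 0.967, limma), and all of MSN4, YAP1 and SKN7 were named after their values were seen. The respiratory chain and ATP synthase list rose in all its 35 genes, with a median of 2.68, led by SDH2 (3.93) and COX12 (3.80). Of 17 general stress genes 16 rose, with a median of 2.58, led by HSP12 (6.60) and DDR2 (4.78). The medians of the 3 mitochondrial genes (2.05) and of all 10 (1.70) lie below both. Of 6 a-cell genes 4 fell, with BAR1 (-1.77) and STE2 (-1.32) in the lead. Of 4 alpha-cell genes 2 rose, MF(ALPHA)1 (1.02) and STE3 (0.84), and of 7 sporulation genes 3 rose, led by SPR3 (1.38) and SPS1 (0.86). In the deletion strain alone 4 a-cell genes fell (19.1% of all genes), and in wild type 0 (19.4%), with all 6 estimates below 0. The deletion strain alone had 1 alpha-cell and 2 sporulation genes that rose (19.9% of all genes), and wild type 0 of either (17.9%). None of these lists had a member past the threshold between the strains or in the test of a different change (limma).

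**Figure D5:**
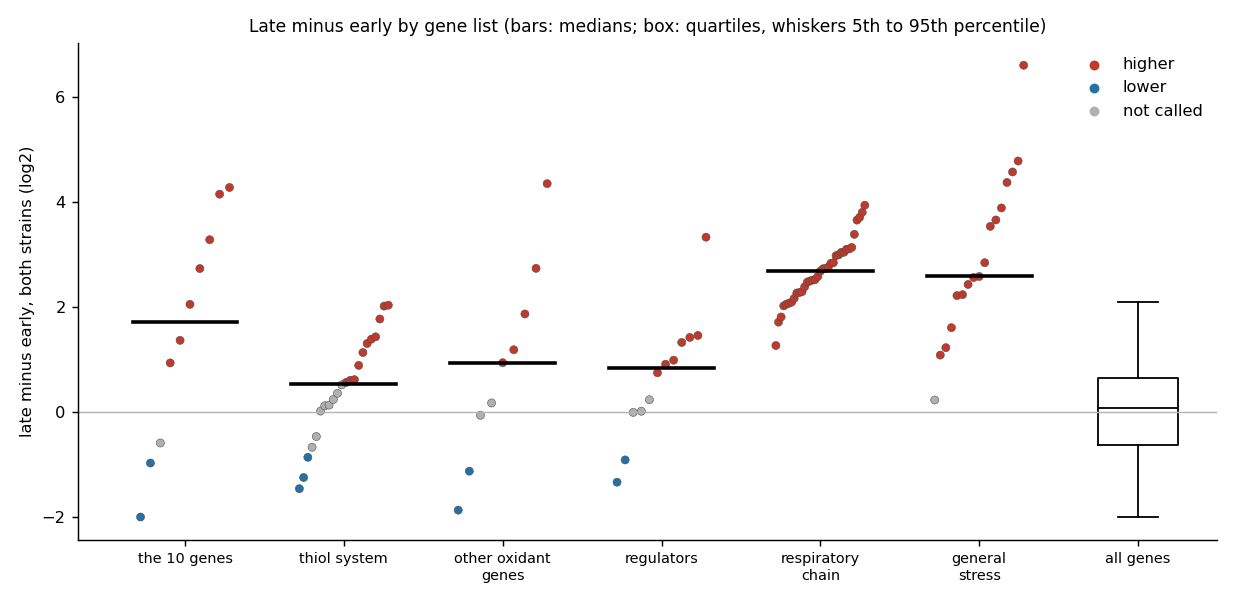
Late minus early over both strains (log2, vertical axis) of each gene by list, coloured by whether it rose, fell or did not pass; horizontal bars are list medians, and the box shows all 6083 genes tested. The 35 respiratory genes are all above 0, whereas the 10 genes and the thiol, oxidant and regulator lists each hold genes on both sides of 0.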

How the data were processed

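The deposited table holds 1 log2 ratio per open reading frame and array for 12 arrays of 2 colours; per the labels each sets a sample against a reference. The log base was taken as 2. Scanner, background correction, spot filter and normalization were not given in the sources used here. No columns of other samples were present (0). Deposited array medians lay between -0.11 and 0.03. Precision is limited by the number of arrays.

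Arrays were centred to a median of 0. The fit used limma 3.58.1 (R 4.3.3; lmFit and eBayes) on 10 arrays in 4 groups of strain and phase, with 6 residual degrees of freedom. A gene entered with at least 2 values in each late group and 1 in each early group. The Benjamini-Hochberg adjustment ran over all 6083 genes tested, with calls at an adjusted p under 0.05. Gene names came from a RefSeq table of assembly R64, which matched 5592 systematic names. It was used only for names and for gene overlaps.

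The members, the phases and the 8 gene lists (115 entries, 2 of them without a row) were chosen with earlier results of these data known. The genes named are the 10 members, USV1, the 3 genes nearest to each member, and the 2 largest rises and falls past the threshold in each list; others are marked in the text. Lists are described by counts and medians only. The fit was tested on simulated data. Centring, filter, moderation, time points, single arrays and other designs were varied.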

Additional observations from a re-analysis of the deposited data

Results flagged for a closer look

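Of 30 sets of values looked at (the strain differences of each member over 5 times, and its 6 arrays in each strain), 1 held a value far from the others. TSA2 differed by 5.44 between the deletion strain and wild type at 5 hours, against values between -1.36 and -0.06 at the other times; the gap was 0.809 of the whole range, where 0.710 is the critical value. Chance flags about 1 in 20 such sets. No member passed the test of a different change in the strains, and none moved in opposite directions in them.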

How the results depend on the processing

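The count of all genes called late minus early over both strains was 3296, and leaving out 1 array moved it between 2708 and 3329. It was 2103 without both 0-hour arrays and 252 for 1 day minus 0 hours over the 5 shared time points, where 2 members were higher and 1 lower; that design has fewer arrays per time point and takes in the 5-hour arrays. In the deletion strain the count was 2375, with 1111 without the 0-hour arrays, 1299 without the 2-hour and 3-hour arrays, and 1317 (without its own 0-hour array) to 2470 with 1 array left out; it was 1496 without its own 2-hour array. In wild type it was 2270, with 974 and 1288 under the same 2 settings and 1253 (without its own 0-hour array) to 2447 with 1 array left out.

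Members called higher over both strains stayed at 7 with any 1 array left out, and lower at 2 to 3. In the deletion strain they ranged from 5 to 7 higher and 0 to 3 lower, with the lowest counts without its own 0-hour array, and in wild type 6 were higher throughout and 0 to 2 lower, with 0 without its own 0-hour array. After quantile normalization 6 were higher and 3 lower over both strains, where SOD1 lost its call. In the single strains 4 were then higher and 3 lower in the deletion strain, and 5 higher and 2 lower in wild type. Without the 0-hour arrays 0 were lower in either strain. Without the 2-hour and 3-hour arrays 1 was lower in each, as was 1 in wild type without the 7-hour arrays and 1 in the deletion strain without the 9-hour arrays. The cause was not tested. No call of a member changed direction under any alternative.

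Between the strains no member passed under any alternative. Of all genes, 2 passed late with time point as a factor over 7 hours to 1 day, 0 to 1 with 1 array left out, 12 early and 1 in the test of a different change after quantile normalization. The labels give no replicate numbers; the fits with time point as a factor pair the strains by labelled time, and called those 2 genes over 7 hours to 1 day and 0 over all 5 shared times. Mitochondrial minus cytosolic was 1.16 in the deletion strain (0.78 by medians; 0.99 to 1.40 with 1 array left out) and 1.32 in wild type (1.91 with GPX1 as mitochondrial, 1.03 after quantile normalization, 1.18 to 1.50 with 1 array left out). With the values as deposited the median change of all genes in the deletion strain was -0.03 instead of 0.07. Precision was limited by 1 array per strain and time.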
